A study of Mus musculus with 9 samples.

Results

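The 10 genes described here are a chosen set of the clade A serpins in the deposited table, drawn from the Serpina1 group (Serpina1a, Serpina1b, Serpina1c, Serpina1d and Serpina1e) and the Serpina3 group (Serpina3g, Serpina3k, Serpina3m and Serpina3n), together with Serpina12, leaving aside the hormone carriers. Other genes of these groups in the table, Serpina1f, Serpina3a, Serpina3b, Serpina3c, Serpina3f, Serpina3i and Serpina3j, are not among the 10. The 10 were taken by gene symbol, and all 10 were found among the 27434 named genes of a table of 75794 features. RNA came from liver nuclei of male CD1 mice (Crl:CD(ICR), an outbred stock) and was selected for polyadenylated transcripts before sequencing. Control mice received vehicle by tail vein, and treated mice received AAV8-STAT5ca at 2e11 genome copies each, which is an adeno-associated virus of serotype 8, a vector that infects mainly hepatocytes, carrying a constitutively active form of the transcription factor STAT5b. The control group held 4 libraries, 2 collected at 4 weeks and 2 at 6 weeks from injection, and the STAT5ca group held 5, 2 from the earlier time and 3 from the later. Age was 11 to 12 weeks for the earlier collection and 13 to 14 weeks for the later one. The controls received no virus, so the vector and STAT5ca cannot be told apart, and the promoter that drives the transgene is not given in the sources used here.

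Serpins are protease inhibitors that present an exposed reactive centre loop as bait, and a protease that cuts the loop is trapped as the serpin changes shape. In liver, hepatocytes secrete large amounts of clade A serpins into plasma, where alpha-1-antitrypsin restrains neutrophil elastase. Humans have a single gene for alpha-1-antitrypsin, while the mouse has several Serpina1 copies whose number differs between strains, and the human SERPINA3 gene is likewise matched by a row of mouse Serpina3 genes. A rat gene of this Serpina3 group, Spi2.1, is a classical target of growth hormone acting through STAT5, which gives the question for the mouse genes in these livers.

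The densest differences among the Serpina1 copies lie in a short stretch near the end of the coding sequence, in the part where serpins encode the reactive centre loop. Over the 1239 coding bases of the 5 copies (GENCODE M21, GRCm38), 86 positions differed in at least 1 copy, and the 60-base window with the most differences, bases 1101 to 1160, held 18 of them. These windows are shown because the loop carries the bait for the protease and because only reads over such positions can be assigned to a copy. Capitals mark the positions that differ among the 5 copies.
Serpina1a: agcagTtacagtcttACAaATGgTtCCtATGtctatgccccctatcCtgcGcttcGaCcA
Serpina1b: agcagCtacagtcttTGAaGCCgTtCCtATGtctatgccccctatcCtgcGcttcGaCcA
Serpina1c: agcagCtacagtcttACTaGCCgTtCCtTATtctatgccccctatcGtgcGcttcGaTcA
Serpina1d: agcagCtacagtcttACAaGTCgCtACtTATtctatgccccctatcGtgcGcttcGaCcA
Serpina1e: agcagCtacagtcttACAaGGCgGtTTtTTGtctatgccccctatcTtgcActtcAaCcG

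With STAT5ca none of the 10 serpins passed the threshold, an adjusted p under 0.05 by the authors' deposited table, whose p-value column is headed edgeR. Among the 7401 named genes averaging 5 RPKM or more over the groups, as all 10 did, 5.09% were called higher and 4.43% lower (9.53% together) at this threshold. Over all named genes the shares were 3.87% and 1.92% (5.79% together). RPKM is the number of reads per feature, scaled for the length of the feature and the depth of the library, and the table gives 1 value per group, so values of single libraries and their spread were not available for these genes. The signed fold was above 1 for 4 of the 10 and below -1 for 6, from 1.26-fold lower (Serpina3k) to 1.76-fold higher (Serpina12) by the authors' deposited table. The median log2 fold of the 10 was -0.01 by the authors' deposited table, against -0.01 for named genes averaging 5 RPKM or more. Their median size of change regardless of direction was 0.15 on the log2 scale, against 0.25 for those genes. The smallest adjusted p was 0.167, for Serpina12, and the 9 others had an adjusted p of 1 by the authors' deposited table. For Serpina12 the unadjusted p that a step-up adjustment implies was at most 0.01004, making it the single member known to lie under 0.05 before adjustment. Among named genes averaging 5 RPKM or more, 13.2% were higher and 13.8% lower by that measure. A p-value above the threshold does not show that a gene was unaffected.

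**Figure D1:**
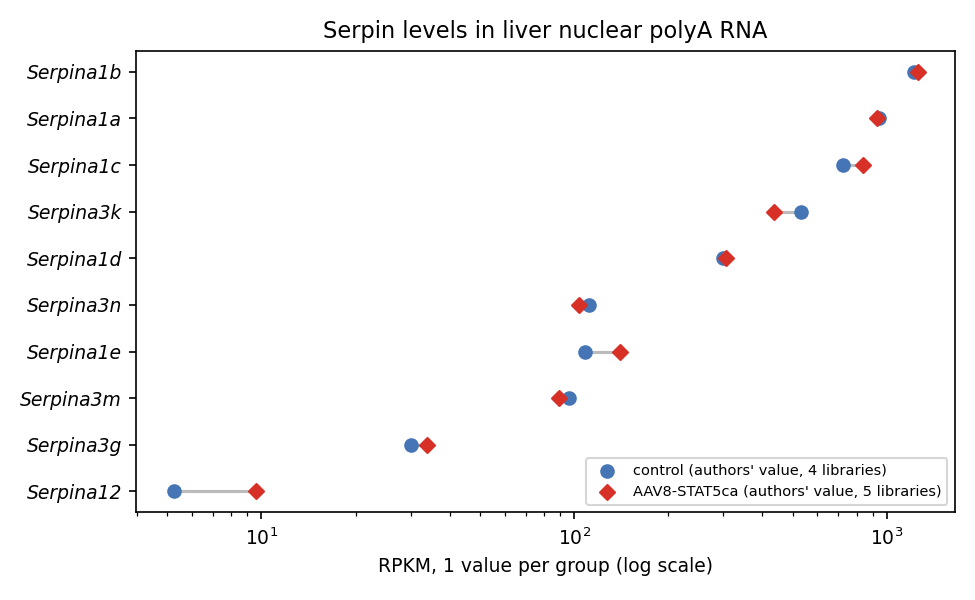
RPKM of the 10 serpins on a log scale in control (circles) and AAV8-STAT5ca livers (diamonds), ordered by control level, 1 authors' value per group and no error bars because values per library were not given. The widest gap is that of Serpina12, at 5.24 and 9.60 RPKM, with smaller ones for Serpina1e (108 and 141 RPKM), Serpina3k (531 and 436 RPKM) and Serpina1c (722 and 837 RPKM).

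Alpha-1-antitrypsin transcripts were among the most abundant in these nuclei and kept their order of levels by RPKM. Serpina1b, the most abundant copy by RPKM, stood at 1225 RPKM in control livers and 1253 RPKM with STAT5ca. These are rank 18 and rank 13 among all named genes. Serpina1a followed at 940 and 927 RPKM, ranks 30 and 22. The third copy, Serpina1c, stood at 722 and 837 RPKM. These 3 copies differed between the groups by a signed fold of -1.01, -1.05 and 1.12, each with an adjusted p of 1 by the authors' deposited table. Serpina1d was lower, at 299 and 306 RPKM (fold -1.01, adjusted p = 1 by the authors' deposited table). Serpina1e, the faintest copy by RPKM, stood at 108 and 141 RPKM. Its fold of 1.23 was the largest within the Serpina1 group and had an adjusted p of 1 by the authors' deposited table. Its listed length was 3008 bases, against 1437 for Serpina1d, and RPKM divides by this length. By the library totals recovered below, its values correspond to about 14816 and 29503 reads, against 19568 and 30681 for Serpina1d. For Serpina1b and Serpina1d the direction depended on the measure, since the RPKM values were higher in STAT5ca livers by 0.03 on the log2 scale while the authors' fold lay just below -1.

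A sum over the copies depends less than single values on how reads were divided among them, but reads that the counting may have left out are missing from it too. The summed RPKM of the 5 copies was 3294 in control and 3464 in STAT5ca livers, a ratio of 1.05. It was 1.09% and 1.12% of all RPKM listed for the group. Serpina1b accounted for 37.2% and 36.2% of this sum, Serpina1a for 28.5% and 26.8% and Serpina1c for 21.9% and 24.2%. The shares of Serpina1d were 9.07% and 8.83%, and those of Serpina1e 3.28% and 4.06%. The order of the copies by RPKM was the same in both groups, and no test was possible on these shares. RPKM divides by the listed length, which was 1933 bases for Serpina1a and 1470 for Serpina1b. At the library totals recovered below, the control values correspond to about 82807 reads for Serpina1a and 82020 for Serpina1b. The STAT5ca values correspond to about 125099 and 128604 reads, so by reads the leading copy differed between the groups.

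Pairs of Serpina1 coding sequences were 96.3% to 98.5% identical, Serpina1a and Serpina1c being the closest. Of all 100-base windows of the principal transcript, 61.0% in Serpina1a and 58.5% in Serpina1c were also present in a transcript of another gene, in both cases mostly the other of that pair. For Serpina1b, Serpina1d and Serpina1e the shares were 26.4%, 29.3% and 14.8%. In the Serpina3 group the shares were low, at 4.64% in Serpina3g, 4.85% in Serpina3k, 6.09% in Serpina3m and 0.204% in Serpina3n, and no window of Serpina12 was shared. How the authors treated reads that fit several copies is not given in the sources used here, so values of single Serpina1 copies are uncertain. The reference genome is of the C57BL/6J strain, and the copies carried by outbred CD1 mice may differ from it.

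**Figure D2:**
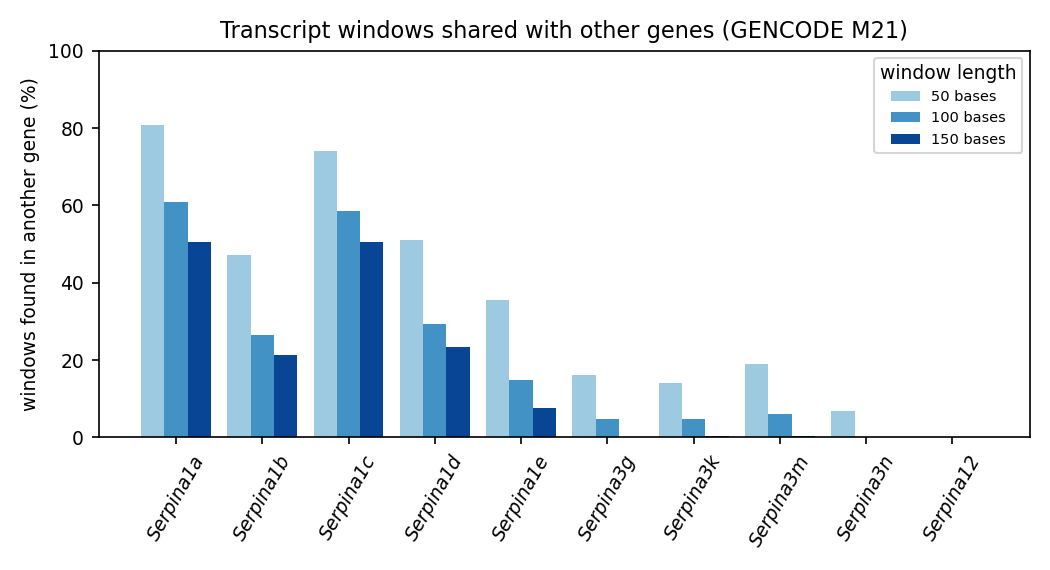
Share of windows of 50, 100 and 150 bases in the principal transcript of each gene that also occur in a transcript of another gene (GENCODE M21), in percent. Serpina1a and Serpina1c have the tallest bars, at 61.0% and 58.5% for 100 bases, and Serpina12 has none.

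**Figure D3:**
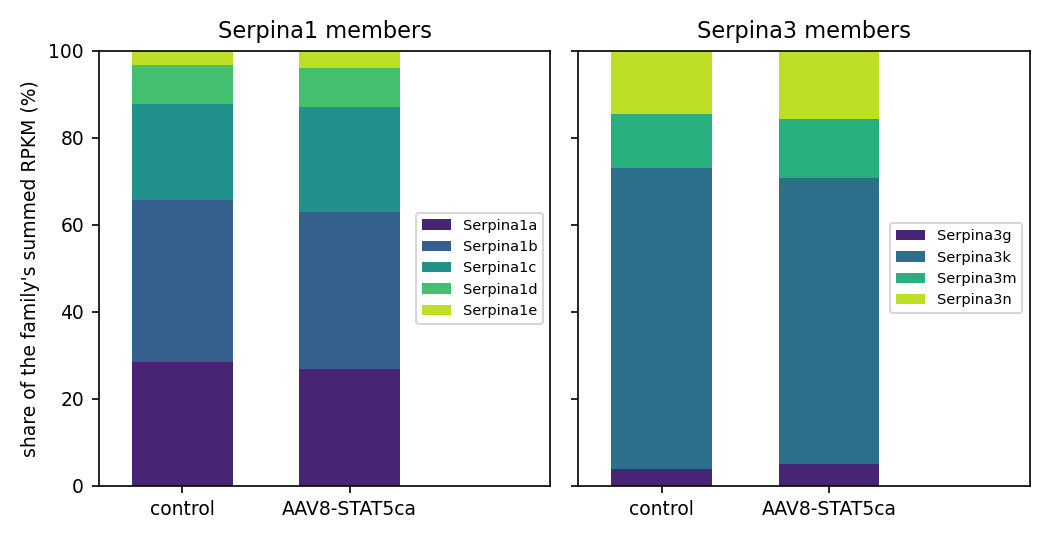
Stacked bars of each copy's share of the summed RPKM of its group, in percent, for the 5 Serpina1 members (left) and the 4 Serpina3 members (right) in control and AAV8-STAT5ca livers. Serpina1b (37.2% and 36.2%) and Serpina3k (69.1% and 65.7%) are the largest parts in both groups.

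The Serpina3 members were led by Serpina3k, a secreted inhibitor known for binding tissue kallikrein. It stood at 531 RPKM in control livers and 436 RPKM with STAT5ca, 1.26-fold lower with an adjusted p of 1 by the authors' deposited table, the lowest of the 10 folds. Of named genes averaging 5 RPKM or more, 62.8% had a smaller change than Serpina3k by the authors' deposited table. Serpina3n, an acute-phase serpin that inhibits granzyme B and cathepsin G, stood at 111 and 104 RPKM (1.12-fold lower, adjusted p = 1 by the authors' deposited table). Serpina3m stood at 96.1 and 89.7 RPKM (1.10-fold lower, adjusted p = 1 by the authors' deposited table). The 3 values were thus all lower in STAT5ca livers, none past the threshold. Serpina3g, an intracellular inhibitor of cysteine cathepsins that is known from lymphocytes and macrophages and is induced by interferon gamma, stood at 30.1 and 33.8 RPKM (1.08-fold higher, adjusted p = 1 by the authors' deposited table). Summed over the 4 genes, RPKM went from 769 to 663, a ratio of 0.863. Without Serpina3k the sum went from 237 to 227, a ratio of 0.956.

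Interferon response genes and markers of immune cells, with which Serpina3g is commonly linked, were measured beside it. Of 26 interferon response genes, 24 rose by the authors' deposited table, against 3.87% of all named genes, with a median log2 fold of 2.17. Macrophage markers summed to 198 RPKM in control livers and 316 RPKM with STAT5ca with 1 of 8 past the threshold (Clec4f, 1.65-fold higher by the authors' deposited table). B cell markers summed to 17.3 and 35.8 RPKM with 3 of 7 higher, and T and NK cell markers to 9.04 and 14.8 RPKM with 0 of 7 past the threshold. The share of all named genes called higher was 3.87%. At an implied unadjusted p under 0.05 from the edgeR column, 5 macrophage, 7 B cell and 3 T and NK markers were higher. By that measure 2549 of all 27434 named genes were higher. Every marker of these 3 lists was detected in both groups. In bulk RNA a change in the number of such cells and a change in RNA per cell cannot be told apart, and their part in the Serpina3g value was not tested. Intervals of Serpina3g share 145 listed bases in all with Serpina3f, a faint neighbour at 1.78 and 2.13 RPKM.

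Serpina12 encodes vaspin, an inhibitor of kallikrein 7 best known as a secreted product of adipose tissue. It was the faintest of the 10 genes, at 5.24 RPKM in control livers and 9.60 RPKM with STAT5ca, and its 1.76-fold higher level was the largest difference among them (adjusted p = 0.167 by the authors' deposited table). Of named genes averaging 5 RPKM or more, 92.5% had a smaller change than Serpina12 by the authors' deposited table. Adjusted again over the 25547 features averaging 0.1 RPKM or more, its p became 0.0622, still above the threshold.

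**Figure D4:**
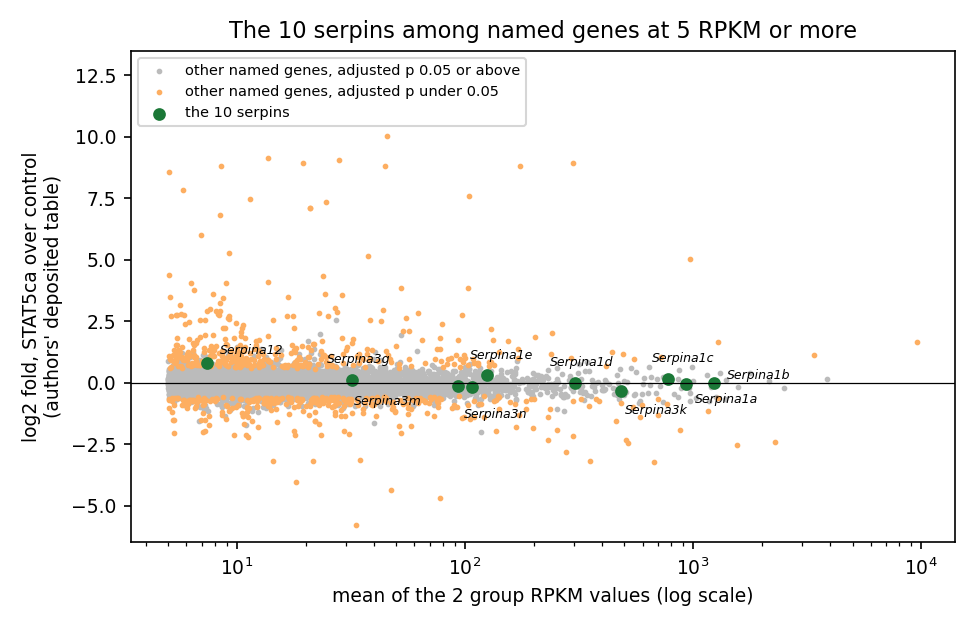
Log2 fold of STAT5ca over control by the authors' deposited table against the mean of the group RPKM values (log scale) for named genes with a mean of at least 5 RPKM, genes with an adjusted p under 0.05 in orange. The 10 serpins (green) lie between -0.33 (Serpina3k) and 0.81 (Serpina12) on the log2 scale.

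Noncoding features at the Serpina12 locus passed the threshold. An antisense long noncoding RNA (lncRNA) feature, nc_as_c12_22918 on chromosome 12 from 105271517 to 105275942 (mm9), lies within the Serpina12 gene (105266980 to 105282653) and went from 1.41 to 5.75 RPKM. It was 3.86-fold higher with an adjusted p of 2.58e-11 by the authors' deposited table. An intergenic feature, nc_inter_c12_22919 (105282802 to 105284726), begins 148 bases beyond the end of the gene, on the side of its transcription start. It went from 0.255 to 1.43 RPKM and was 5.26-fold higher (adjusted p = 3.61e-07 by the authors' deposited table). The library kit keeps strand information, but whether the counting used it is not given in the sources used here, so reads of Serpina12 and of the antisense feature may not be fully separated. At the Serpina1 copies, all listed bases of Serpina1b lie inside the listed interval of the antisense feature nc_as_c12_10850. By the library totals recovered below, the control value of that feature corresponds to about 1663 reads, against about 82020 for Serpina1b. The figure for nc_as_c12_10850 takes its single listed interval of 233771 bases as the length counted. Whether its exons are shorter is not given in the sources used here, so the 2 figures do not measure separation of reads. Separation of reads at Serpina12 was not tested. The difference between the response of Serpina12 and that of nc_as_c12_22918 and nc_inter_c12_22919 was not tested.

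All 10 genes lie in a single cluster of clade A serpins on chromosome 12, which spans 104854886 to 105652539 (mm9) and holds 24 named genes and 53 lncRNA features. In this cluster 3 named genes rose by the authors' deposited table, none of them among the 10. Serpina6, which encodes the corticosteroid carrier of plasma, went from 55.7 to 1875 RPKM (32.7-fold higher, adjusted p = 3.07e-31 by the authors' deposited table). It lies at 104884842 to 104895428, on the far side of Serpina16 and Serpina1f from the first alpha-1-antitrypsin copy, Serpina1b (104966367 to 104976399). Serpina16 was listed at 0 in control and at 1.86 RPKM in STAT5ca livers (adjusted p = 5.63e-18 by the authors' deposited table). Serpina11, which lies between Serpina1e and Serpina12, went from 98.6 to 170 RPKM (1.65-fold higher, adjusted p = 0.0238 by the authors' deposited table). The 5 Serpina1 copies stand in a row between Serpina1f and Serpina11, and the Serpina3 members follow at the other end of the cluster, from Serpina3g (105452665) to Serpina3n (105652539).

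The remaining clade A genes averaging 1 RPKM or more did not pass the threshold. Serpina10, the protein Z-dependent inhibitor of coagulation factor Xa, stood at 59.9 and 92.0 RPKM (adjusted p = 0.209), and Serpina9 at 10.7 and 6.22 RPKM (adjusted p = 0.0669), by the authors' deposited table. Serpina7, the thyroxine carrier on chromosome X, stood at 2.59 and 7.01 RPKM (adjusted p = 0.0965 by the authors' deposited table). Serpina5, Serpina3f and the pseudogene Serpina4-ps1 (1633 and 1519 RPKM) had an adjusted p of 1 by the authors' deposited table. So did Serpina3j, although it went from 6.97 to 18.4 RPKM, a 2.61-fold higher level by the authors' deposited table. When the edgeR values of the authors' deposited table were adjusted again as for Serpina12, Serpina9 (adjusted p = 0.0244) and Serpina7 (adjusted p = 0.0354) came under 0.05, while Serpina10 (adjusted p = 0.0784) did not.

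**Figure D5:**
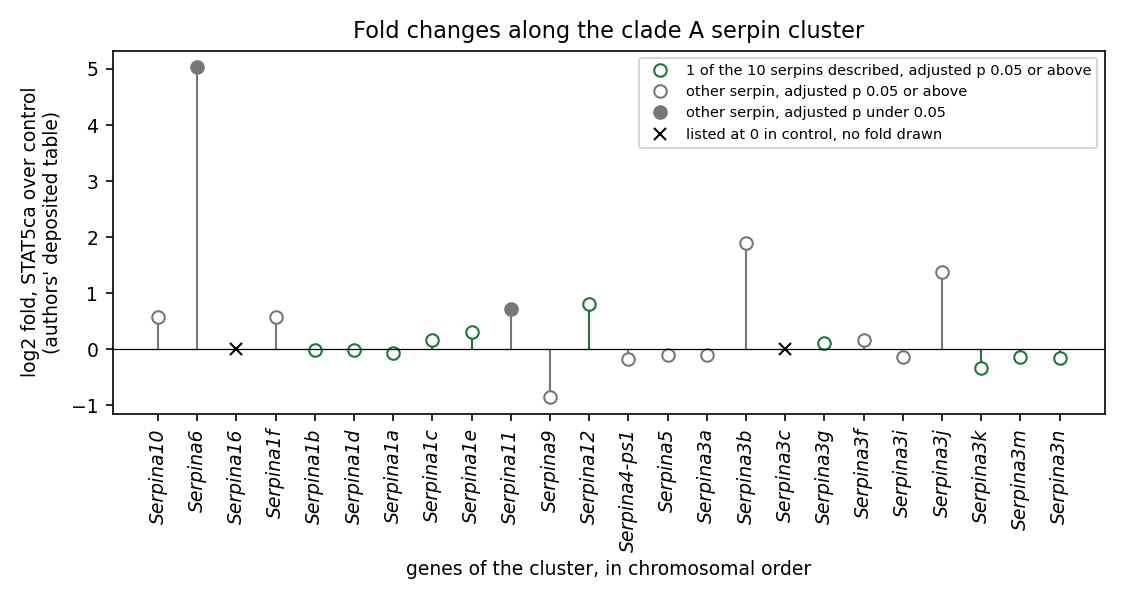
Log2 fold of STAT5ca over control by the authors' deposited table for the 24 named genes of the cluster in chromosomal order, filled where the adjusted p was under 0.05 and open where it was not, with crosses for Serpina16 and Serpina3c, which are listed at 0 in control. Among genes detected in control Serpina6 stands highest at 5.03, while the 10 genes described (green) stay between -0.33 and 0.81.

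Of the 53 lncRNA features in the cluster, 7 were higher and 0 lower at an adjusted p under 0.05 by the authors' deposited table, whose p-values are headed edgeR, against 1.47% and 1.25% (2.72% together) of all lncRNA features. Among those averaging 0.1 RPKM or more, 7 of 33 in the cluster were higher and 0 lower. Of all 10834 lncRNA features at that level, 592 were higher and 553 lower. At an implied unadjusted p under 0.05, 9 of the 53 were higher and 5 lower, against 1653 higher and 1947 lower of all 48360 lncRNA features. Apart from the pair at Serpina12, 4 of the 7 lie around Serpina6 and Serpina16. An antisense feature overlapping Serpina16, nc_as_c12_22894, went from 0.0391 to 2.54 RPKM, and nc_inter_c12_22892, 0.649 kb beyond Serpina6, from 0.0462 to 1.03 RPKM. Between Serpina16 and Serpina1f, nc_inter_c12_22895 and nc_inter_c12_10849 were listed at 0 in control and at 0.775 and 1.86 RPKM in STAT5ca livers. The last, nc_inter_c12_22923, lies near Serpina4-ps1 and went from 2.18 to 5.72 RPKM (adjusted p = 0.0337 by the authors' deposited table). Features within the Serpina1 and Serpina3 rows did not pass. The antisense feature across the Serpina1 copies, nc_as_c12_10850, stood at 0.156 and 0.0893 RPKM (adjusted p = 0.0596 by the authors' deposited table). Adjusted again as for Serpina12, it came under 0.05 as a lower feature. Its implied unadjusted p from the edgeR column (at most 0.00241) is smaller than that of Serpina9 (0.00281), which also came under 0.05. Intragenic features whose intervals begin or end beside exons of the members stood at 24.2 and 22.9 RPKM (nc_intra_c12_10851, beside Serpina1a, Serpina1b and Serpina1d) and at 8.85 and 15.6 RPKM (nc_intra_c12_10883, beside all 4 Serpina3 members), with an adjusted p of 1 and 0.136 by the authors' deposited table. All listed bases of the 4 Serpina3 members also lie inside nc_intra_c12_10884, a feature that extends beyond the cluster and is listed at 0.00733 and 0.00816 RPKM (adjusted p = 1 by the authors' deposited table).

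Promoter windows from 250 bases before to 50 bases after the start site were found for 8 of the 10 genes (RefSeq, GRCm38.p6). Serpina3k and Serpina3m had no window and were not searched. The 8 windows were searched on both strands for the STAT5 consensus TTCNNNGAA, for GTTAAT and for TATAAA, the core of the TATA box. The motif GTTAAT occurred once in each of the 5 Serpina1 windows and in no window of Serpina3g, Serpina3n or Serpina12, while 7.10% of all 32851 promoter windows hold it. The Serpina1 windows are near copies, with pairs among Serpina1a to Serpina1d 85.2% to 91.4% identical. Serpina1e was 63.3% to 69.3% identical to these. The bases around GTTAAT are the same in all 5, so these matches are not separate occurrences to set against that share. TTCNNNGAA occurred in Serpina3g alone among the 8, and in 8.30% of all windows. It also occurred in 4 of 11 other clade A genes with a window. Of these 4, Serpina11 rose and Serpina1f, Serpina3f and Serpina3i had an adjusted p of 1 by the authors' deposited table. The window of Serpina16, which rose from a listed 0, held no such match. Serpina6, which also rose, had no window and was not searched. No window of the 8 genes held more than 1 of these sites, so none overlapped, and none held TATAAA, which 13.6% of all windows hold. The windows of the most abundant copy by RPKM and of the 2 genes that differ from it most in RPKM are shown, with these motifs in capitals where present. Serpina1b lies at chr12:103738140-103738439 on the minus strand with GTTAAT starting at base -26 from the start site, Serpina3g at chr12:104235897-104236196 on the plus strand with TTCNNNGAA starting at base -33, and Serpina12 at chr12:104044394-104044693 on the minus strand with neither. A match in these letters is a description and shows no binding.
Serpina1b: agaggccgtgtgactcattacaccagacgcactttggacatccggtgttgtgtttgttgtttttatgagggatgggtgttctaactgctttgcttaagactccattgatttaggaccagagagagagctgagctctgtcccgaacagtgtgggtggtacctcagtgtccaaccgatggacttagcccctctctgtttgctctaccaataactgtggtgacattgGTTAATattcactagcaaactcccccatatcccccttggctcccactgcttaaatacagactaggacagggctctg
Serpina3g: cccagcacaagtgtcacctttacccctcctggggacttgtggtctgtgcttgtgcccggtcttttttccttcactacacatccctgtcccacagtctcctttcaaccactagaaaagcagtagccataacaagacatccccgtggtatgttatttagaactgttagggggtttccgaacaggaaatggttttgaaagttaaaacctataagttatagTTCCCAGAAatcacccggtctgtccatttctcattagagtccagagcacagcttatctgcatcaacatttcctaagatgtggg
Serpina12: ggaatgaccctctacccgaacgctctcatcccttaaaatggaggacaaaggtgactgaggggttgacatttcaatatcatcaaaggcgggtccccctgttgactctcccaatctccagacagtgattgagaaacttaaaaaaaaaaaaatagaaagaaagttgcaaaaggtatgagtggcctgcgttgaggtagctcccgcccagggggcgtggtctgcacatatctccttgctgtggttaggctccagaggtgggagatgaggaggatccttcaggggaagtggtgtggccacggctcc

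Regulators included liver factors and the STAT5 pathway. Hnf4a, which encodes a liver transcription factor, stood at 83.7 and 85.3 RPKM (adjusted p = 1 by the authors' deposited table). Of 26 regulators of these genes or of the pathway, 5 rose and 1 fell by the authors' deposited table, against 3.87% and 1.92% of all named genes. Among named genes averaging 5 RPKM or more the shares were 5.09% and 4.43%. Cux2, Socs2 and Cish rose 38.5-fold, 14.3-fold and 17.2-fold, and the repressor gene Bcl6 was 4.42-fold lower, by the authors' deposited table. Foxa2, named after its value was seen, also rose, at 1.55-fold higher (adjusted p = 0.0458 by the authors' deposited table). Stat5b itself stood at 15.8 and 14.8 RPKM (adjusted p = 1 by the authors' deposited table). Whether reads of the transgene would be counted in this value is not given in the sources used here.

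Acute-phase proteins, plasma proteins that hepatocytes raise or lower in inflammation, give a setting for Serpina3n and the alpha-1-antitrypsin copies. Of 24 acute-phase genes 6 rose and 1 fell by the authors' deposited table, against 3.87% and 1.92% of all named genes, and the list's median log2 fold was 0.74. Among named genes averaging 5 RPKM or more the shares were 5.09% and 4.43%. Fgl1, Apcs, Hpx and Lcn2 rose 6.75-fold, 4.60-fold, 3.10-fold and 5.84-fold by the authors' deposited table. Of 22 proteases that serpins act on or meet in plasma and lysosomes, 4 rose by the authors' deposited table, against 3.87% of all named genes, namely Ctss (2.58-fold), Ctsc (2.41-fold), F10 (1.93-fold) and Prtn3 (4.46-fold). Neutrophil markers, of which 4 of 8 rose by the same table against 3.87% of all named genes, summed to 4.95 RPKM in control and 9.12 RPKM with STAT5ca. The 4 that rose stood at only 0.0228 to 0.0320 RPKM in control, and the 2 markers averaging 1 RPKM or more did not pass. The part of neutrophil markers in the protease values was not tested. Elane, which encodes neutrophil elastase, the main target of alpha-1-antitrypsin, stood at 0.214 and 0.550 RPKM (adjusted p = 0.582 by the authors' deposited table).

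Library totals recovered from the faintest features were 9489045 to 13144589 reads in control and 11823873 to 14863490 reads in STAT5ca livers. At these totals the Serpina1b values correspond to about 82020 reads over the control libraries and 128604 over the STAT5ca libraries, and those of Serpina3g to 3107 and 5348. These estimates cover the listed intervals and give counting depth only, not the spread between libraries. Hepatocyte markers summed to 10643 and 20038 RPKM, and Alb, the only 1 of 8 past the threshold, went from 4563 to 14666 RPKM (3.13-fold higher by the authors' deposited table), a gain larger than that of the sum. The labels do not say that each library is a separate mouse, so the p-values measure the spread between these libraries.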

How the data were processed

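Per the labels' protocols, nuclei were isolated from frozen liver and polyadenylated RNA was made into strand-keeping libraries. Per the submitters' processing notes, the authors used STAR, featureCounts and edgeR (no versions) on mm9. RPKM values were deposited as 1 number for each group, over collapsed exons per the file headers, with both times pooled. The authors also deposited a signed fold (a score, above 0 where STAT5ca was higher) and an adjusted p-value headed edgeR. Whether time entered the authors' fit is not given in the sources used here. In the copy used here 4 lines were empty.

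Calls use the authors' adjusted p under 0.05. Listed starts are counted from 0, so 1 was added. Members were matched by symbol. Gene lists, members and tests were chosen with earlier results of these data known. Of each other list, at most the 4 genes with the smallest adjusted p are named, and of other clade A serpins each with a mean RPKM of at least 1. Unadjusted p-values were bounded by undoing a step-up adjustment. Library totals were read from lncRNA features of 1 interval whose value equals 1 read in 1 library. Both steps were tested on simulated data (Python 3.11.15, pandas 2.3.3). Coding sequences and windows came from the APPRIS principal transcripts of GENCODE M21 and were aligned with Biopython 1.88. Alternatives were a stricter p, a minimum fold, a level filter, a second adjustment, pseudocounts and centring. Of 16 other clade A serpins listed, Serpina3h was not analysed here, nor were the markers Trac and Ighm. The planned comparison of the protein loops was replaced by that of the coding sequences. Hnf4a, Stat5b and Elane fall outside the rule and were named after their values were seen. Some regulators of the list are not reported here.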

Additional observations from a re-analysis of the deposited data

How the results depend on the processing

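The count of 0 members higher and 0 lower by the authors' edgeR values was the same with a threshold of 0.01, a fold of 2 or more, a level filter of 1 RPKM, or a second adjustment over features averaging 0.1 RPKM or more. With the log2 RPKM ratio in place of the authors' fold, Serpina1b and Serpina1d turned from just below 0 (-0.01 each) to 0.0333 and 0.0332 (0.0333 and 0.0332 with a pseudocount of 0.1, 0.0333 and 0.0331 with 1), while centring on the median named gene (0.09) kept the direction of all 10. The summed Serpina3 ratio of 0.863 became 0.956 without Serpina3k. Among lncRNA features of the cluster, under alternatives chosen after seeing the data, 3 in place of 7 were higher at 1 RPKM or more, and 2 in place of 0, nc_as_c12_10850 among them, were lower after the second adjustment. Fewer features enter each of these. No paired analysis was possible because the columns hold group values and carry no replicate numbers, and leaving out a replicate could not be run for the same reason. Depth was recovered only as library totals, and the spread between libraries could not be measured here.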

Other observations

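Among 22 serpins outside clade A, 1 fell, against 1.92% of all named genes. It was Serpinh1, which encodes a collagen chaperone, from 16.1 to 5.30 RPKM (3.19-fold lower, adjusted p = 4.16e-10 by the authors' deposited table). Stellate cell markers, which mark the main collagen-making cells of liver, summed to 307 RPKM for controls and 166 RPKM with STAT5ca. Of these 8, 3 were lower, against 1.92% of all named genes. Ecm1 went from 140 to 54.2 RPKM by the authors' deposited table, the largest part of the fall in this sum. All 8 had a signed fold below -1. The part of these markers in the Serpinh1 value was not tested. The plasma inhibitor genes Serpinc1 (antithrombin, 402 and 523 RPKM), Serpinf2 (alpha-2-antiplasmin, 250.2 and 263 RPKM) and Serping1 (C1 inhibitor, 264 and 221 RPKM), named after their values were seen, did not pass (adjusted p = 0.888, 1 and 0.668 by the authors' deposited table).

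Among 20 genes for folding, export and degradation of secreted proteins in the endoplasmic reticulum, the route that alpha-1-antitrypsin takes, 3 fell by the authors' deposited table, against 1.92% of all named genes. Among named genes averaging 5 RPKM or more, 4.43% were lower. The 3 of this list were Derl3 (16.4-fold lower), Herpud1 (2.67-fold lower) and Syvn1 (2.53-fold lower, adjusted p = 0.00488 by the authors' deposited table). The other 17 did not pass. Markers of endothelial cells summed to 350 and 242 RPKM with 2 of 8 lower.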
